A study of Mus musculus with 51 samples.

Results

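The unfolded protein response and integrated stress response genes described here are 37 mouse genes, listed by symbol and matched to their Ensembl identifiers in a table of 53801 genes. An ATF4 arm holds 16 of them, from Atf4 to Slc3a2. The other 21, from Xbp1 onward, are sensors, chaperones and degradation factors of the endoplasmic reticulum (ER). The study sequenced total RNA of 51 samples of the C3H/10T1/2-SAM line, which is mesenchymal and carries a catalytically dead Cas9 fused to VP64 and an MS2-P65-HSF1 activator, so that a guide RNA switches on the gene it is aimed at. Cells received the empty vector plasmid (EV), a Pparg guide plasmid (P), or Pparg and Ybx1 guide plasmids together (PY), at 250 ng of plasmid in every transfection. Rosiglitazone, a PPARγ agonist, was given at 5 µM to every group on day 0, which was 48 h after transfection, and RNA was taken on days 0, 2 and 4. Each of the 9 groups holds 5 or 6 libraries from 6 experiments, with no EV day 0 library from experiment 6, no P day 0 library from experiment 2 and no PY day 2 library from experiment 4. No group went without transfection or without rosiglitazone, so the effects of the drug, of the day and of the time since transfection cannot be told apart.

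Several stresses (unfolded protein in the ER, shortage of amino acids, double-stranded RNA, lack of heme) activate kinases that phosphorylate the translation factor eIF2α. Bulk protein synthesis then drops while the transcription factor ATF4 is made, and ATF4 raises genes for amino acid uptake and synthesis, redox control and its own feedback. The ER has a pair of further sensors, IRE1 (Ern1), which splices Xbp1 mRNA, and ATF6, which is cleaved to a transcription factor, and both raise chaperones and the machinery of ER-associated degradation (ERAD), which extracts misfolded proteins to the proteasome. Fat cells secrete proteins in quantity and build lipid at the ER membrane, and both branches have been studied in their formation.

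Promoters are shown for a few members because the arms are known for different control sequences. RefSeq windows from 250 bases before to 50 bases after the annotated start (GRCm38.p6) were matched for 33 of the 37 genes, in 35 windows, and not for Hyou1, Atf6, Manf and Slc7a5. On either strand, the element bound by ATF4 with C/EBP partners, TGATGNAA, lay in 4 of 15 ATF4-arm genes (Trib3, Asns, Chac1 and Pycr1), in 1 of 18 ER genes (Herpud1) and in 3.97% of all 32851 windows of the table. The ER stress element, CCAAT and CCACG held 9 bases apart, lay in 0 of 15 ATF4-arm genes and in 8 of 18 ER genes (Hspa5, Hsp90b1, Dnajc3, Syvn1, Pdia6, Calr, Canx and Creld2), against 0.119% of all windows. ER stress element II, ATTGG and CCACG held 1 base apart, lay in Dnajb11 and Herpud1 and in 0.0365% of windows, and the UPR element TGACGTGG in no member and in 0.676% of windows. Such a match is a description of letters, not of a bound site. The windows below run 5′ to 3′ along the gene. Capitals mark the ATF4 and C/EBP element in the first 3 (on the opposite strand in Chac1 and Trib3). They also mark the ER stress element in Hspa5 and, at both its copies, in Hsp90b1, where the second copy is on the opposite strand. Dnajb9, the member called between P and EV, held none of these motifs in its window.
Chac1, chr2:119350992-119351291, plus strand: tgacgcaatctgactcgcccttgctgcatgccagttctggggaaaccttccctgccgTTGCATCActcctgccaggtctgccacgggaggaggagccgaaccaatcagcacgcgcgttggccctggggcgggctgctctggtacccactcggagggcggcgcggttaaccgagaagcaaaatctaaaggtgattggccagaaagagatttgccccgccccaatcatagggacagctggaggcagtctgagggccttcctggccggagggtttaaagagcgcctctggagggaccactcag
Trib3, chr2:152344011-152344310, minus strand: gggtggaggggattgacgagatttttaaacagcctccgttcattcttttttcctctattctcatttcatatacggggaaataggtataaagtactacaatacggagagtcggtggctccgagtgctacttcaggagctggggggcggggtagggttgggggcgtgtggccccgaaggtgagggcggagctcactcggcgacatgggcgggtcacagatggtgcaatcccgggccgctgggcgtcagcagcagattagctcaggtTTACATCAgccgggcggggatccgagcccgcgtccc
Asns, chr6:7693160-7693459, minus strand: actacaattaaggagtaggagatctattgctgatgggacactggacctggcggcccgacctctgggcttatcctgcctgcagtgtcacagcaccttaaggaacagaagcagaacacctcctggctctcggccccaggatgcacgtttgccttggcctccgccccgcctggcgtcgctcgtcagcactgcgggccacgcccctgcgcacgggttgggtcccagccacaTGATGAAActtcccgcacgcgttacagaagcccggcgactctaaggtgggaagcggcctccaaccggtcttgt
Hspa5, chr2:34771840-34772139, plus strand: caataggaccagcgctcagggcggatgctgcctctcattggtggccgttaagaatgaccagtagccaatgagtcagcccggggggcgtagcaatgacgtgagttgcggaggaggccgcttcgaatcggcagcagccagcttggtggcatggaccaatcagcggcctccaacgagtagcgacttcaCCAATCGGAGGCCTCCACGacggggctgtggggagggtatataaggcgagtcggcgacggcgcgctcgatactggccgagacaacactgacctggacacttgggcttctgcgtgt
Hsp90b1, chr10:86705395-86705694, minus strand: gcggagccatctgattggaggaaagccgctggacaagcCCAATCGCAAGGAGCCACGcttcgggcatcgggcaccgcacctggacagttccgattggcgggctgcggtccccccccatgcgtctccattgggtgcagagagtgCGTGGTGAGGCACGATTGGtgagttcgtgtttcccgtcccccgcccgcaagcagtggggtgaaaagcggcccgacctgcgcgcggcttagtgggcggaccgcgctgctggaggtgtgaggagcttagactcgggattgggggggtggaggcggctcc
Dnajb9, chr12:44210019-44210318, minus strand: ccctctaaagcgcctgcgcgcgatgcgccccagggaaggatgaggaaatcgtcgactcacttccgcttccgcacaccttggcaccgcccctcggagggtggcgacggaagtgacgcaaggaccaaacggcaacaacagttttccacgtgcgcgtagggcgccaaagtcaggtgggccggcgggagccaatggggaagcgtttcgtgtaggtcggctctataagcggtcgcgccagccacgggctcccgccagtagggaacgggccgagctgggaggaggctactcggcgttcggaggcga

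Library totals ran from 3381870 to 114567000 counts with a median of 22366600. The smallest member count in any library was 23, for Pycr1, so no member was lost to depth and all 37 were among the 17015 genes tested. Pparg rose 4.69-fold in P over EV on day 0 (adjusted p 0.000136, edgeR quasi-likelihood test), and Ybx1 was higher in PY than in P by 1.61 on the log2 scale (adjusted p 2.83e-08). Fibroblast genes were abundant throughout (summed level of 12 genes 11049 to 28930 CPM, counts scaled to a common library size). Of 20 markers of macrophages, endothelium and epithelium, 5 had a median of 0 (Ptprc, Adgre1, Itgam, Emcn and Epcam), while 6 were at 0 in no library, among them Tek (median 22.7 CPM), Cd14 (6.28), Cd68 (3.16) and Cdh1 (1.74). The experiment 4 libraries stood apart: in the ATF4 arm they were the highest of their group in 105 of 128 gene and library pairs (82.0%), and in the ER arm in 90 of 168 (53.6%). Ddit3 went the other way, and its experiment 4 library was the lowest in all 5 groups of days 0 and 2 that hold one. For Sesn2 the experiment 4 library was the lowest in all 3 groups of day 4 and the highest in 2 other groups. Counts of calls against day 0 are therefore given with and without that experiment. Several members overlap a protein-coding gene on the other strand, among them Ddit3 (Mars), Ppp1r15a (Tulp2), Atf5 (Nup62 and Il4i1) and Shmt2 (Ndufa4l2). The strand setting of the counting is not given in the sources used here, so reads of such a pair may not have been separated.

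Among EV libraries on day 0, levels per kilobase of exon spanned a wide range, and neighbours in the order overlapped within 1 SD of their means in 33 of 36 pairs. The pairs apart were Edem1 and Syvn1 (12.7 ± 2.13 and 8.96 ± 1.32 CPM per kb), Syvn1 and Ern1, and Ern1 and Pycr1. The most abundant member was Calr, the ER lectin chaperone calreticulin, at 424 ± 87.2 CPM per kb (SD, n = 5). It was followed by Hspa5, the BiP chaperone, at 285.5 ± 128, and Hsp90b1, the chaperone GRP94, at 273 ± 62.7 CPM per kb. Atf4 was the most abundant member of its arm at 175 ± 44.5 CPM per kb, next to Canx (calnexin) at 167 ± 28.4. At the other end stood the IRE1 sensor gene Ern1, at 5.93 ± 1.59 CPM per kb, and Pycr1, an enzyme of proline synthesis, at 3.17 ± 1.14.

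From day 0 to day 4 the ATF4 arm fell in every transfection. With EV, 12 of 16 genes were lower on day 4 and 0 higher, against 14.9% of all tested genes lower. With P it was also 12 lower and 0 higher (background 18.6% lower), and with PY 14 lower and 0 higher (17.8% lower). The median change over the 16 genes was -1.13, -1.12 and -1.04 on the log2 scale for EV, P and PY, where the median of all genes was 0.02, 0.00 and -0.01. A set of 12 genes passed in all 3 transfections: Atf4, Ddit3, Trib3, Asns, Chac1, Sesn2, Ppp1r15a, Psat1, Shmt2, Mthfd2, Slc7a5 and Slc3a2. Atf5 and Aldh18a1 passed in PY, while Phgdh and Pycr1 passed in none. Without experiment 4 the counts were 12, 12 and 15 (15.9%, 19.4% and 21.1% of all genes lower), and without experiment 5 they were 8, 9 and 10 (9.97%, 12.1% and 10.9%). With experiment as a block they were 15, 14 and 15, where 22.4%, 26.1% and 26.1% of all genes were lower.

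**Figure D1:**
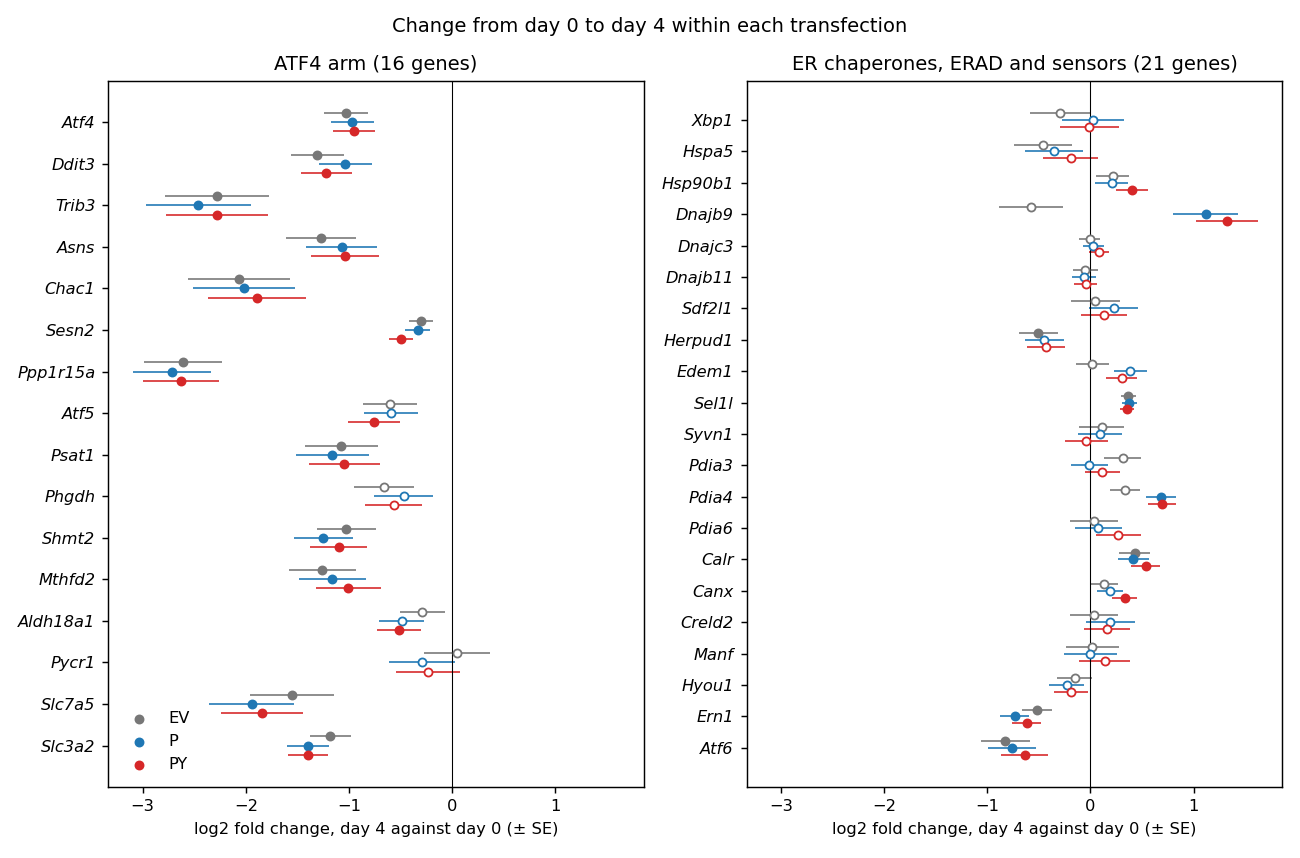
Change from day 0 to day 4 for each of the 37 genes (log2 fold change ± SE from the edgeR fit, horizontal axis) in EV, P and PY, with the ATF4 arm apart from the ER arm and filled points for genes called at adjusted p under 0.05. Called ATF4-arm genes all lie below 0, down to -2.72 for Ppp1r15a in P, while ER genes lie on both sides of 0, from -0.83 for Atf6 in EV to 1.33 for Dnajb9 in PY.

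Over the same days the summed level of 16 fat cell genes went from 543 to 687 CPM to 739 to 2226 CPM in EV. In P it went from 718 to 1737 CPM to 5467 to 23604 CPM, and in PY from 705 to 2070 CPM to 2829 to 26147 CPM. EV and P thus had the same number of ATF4-arm genes lower on day 4 at very different levels of fat cell genes; the part of fat cell formation in the fall was not tested. Because these are bulk libraries, fewer cells making a transcript and less of it per cell cannot be told apart.

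Of the transcription factors, Atf4 (chr15:80255184-80257541, plus strand, GRCm38) is the regulator that names the arm. Its EV day 0 libraries of experiments 1 to 5 stood at 360.0, 384, 289, 564 and 460.4 CPM, and the 6 EV day 4 libraries ran from 154 through a median of 195 to 297 CPM. P went from 348, 293, 478, 486 and 394 CPM to between 153 and 264 CPM, median 197. PY went from 289 to 492.8 CPM, median 402, to 144 to 309 CPM, median 201. Only the P groups were fully separated, since the high experiment 4 library of day 4 reached into the day 0 range in EV and PY. Within an experiment Atf4 was lower on day 4 in 5 of 5, 5 of 5 and 6 of 6 experiments. The fitted change in Atf4 was -1.03 ± 0.21 (SE) in EV (adjusted p 0.000268), -0.97 ± 0.21 in P (0.000326) and -0.95 ± 0.20 in PY (0.000231) on the log2 scale, all by edgeR's quasi-likelihood test, as are all adjusted p-values here.

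Ddit3 encodes CHOP, an ATF4 target that drives the death branch of the response when stress persists. Its EV day 0 values were 188, 238, 186, 141 and 267 CPM, and on day 4 EV ran from 55.2 through 75.1 to 123 CPM with no overlap. P day 0 held 129, 189, 104, 275 and 209.8 CPM against 56.9 to 135 CPM on day 4, median 82.6, and PY went from a median of 199.7 to one of 89.2 CPM. Ddit3 fell by 1.31 ± 0.26 on the log2 scale in EV (adjusted p 0.000193), by 1.04 ± 0.26 in P (0.00144) and by 1.22 ± 0.25 in PY (0.000142), and in every experiment with both days. The table also lists a second Ddit3 identifier at an overlapping locus, with 0 counts in every library, so reads on shared exons may have been left uncounted. Atf5, a related factor of the mitochondrial stress response, fell by 0.75 in PY (adjusted p 0.0160) and stood at -0.60 in EV and -0.59 in P without passing (0.0751 and 0.0715). The experiment block brought Atf5 past the threshold in EV (0.00725) and P (0.00152), while its PY call was lost in 4 of 25 alternatives.

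The largest falls were in genes of feedback and redox control. Ppp1r15a (chr7:45522916-45526268, minus strand) encodes GADD34, the phosphatase subunit that dephosphorylates eIF2α and restores translation. Its EV day 0 libraries stood at 105, 151, 59.2, 388 and 175 CPM, and EV day 4 at 24.6 to 35.5 CPM with a median of 27.7. P day 0 stood at 154, 62.5, 348, 192 and 144 CPM against 20.6 to 40.0 CPM on day 4, median 23.9, and PY day 0 at 66.2 to 306 CPM against 20.7 to 51.9 CPM, median 23.6. Every day 4 library lay below every day 0 library of its transfection, and experiment 3 had the lowest day 0 level in each. Ppp1r15a was 6.08-fold lower in EV (95% interval 3.64 to 10.2, adjusted p 3.33e-06), 6.59-fold in P (3.93 to 11.03, 6.25e-07) and 6.19-fold in PY (3.74 to 10.2, 4.16e-07).

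Trib3 (chr2:152337422-152344032, minus strand) encodes a pseudokinase that binds ATF4 and restrains AKT. EV day 0 held 25.1, 32.1, 28.3, 108 and 61.5 CPM, and EV day 4 held 4.93 to 23.2 CPM, median 8.36. P day 0 held 50.03, 29.0, 112, 64.3 and 39.2 CPM against 3.52 to 20.2 CPM, median 8.81, and PY went from 24.2 to 98.2 CPM to 4.15 to 25.9 CPM. The days did not overlap in EV or P, and in PY they overlapped at the edge. Trib3 was 4.87-fold, 5.51-fold and 4.85-fold lower in EV, P and PY (adjusted p 0.000689, 0.000174 and 0.000276). Within each transfection it was lower in every experiment with both days.

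Chac1 degrades glutathione. Its EV day 0 values of 38.3, 55.2, 27.3, 103 and 82.5 CPM gave way to 7.76 to 34.4 CPM on day 4, median 10.2, where experiment 4 alone kept the groups from separating. Chac1 was 4.19-fold, 4.05-fold and 3.71-fold lower in EV, P and PY (adjusted p 0.00149, 0.00118 and 0.00156). Sesn2, a leucine sensor that restrains mTORC1, moved far less, from 151, 156, 129, 171 and 129 CPM in EV to 99.6 to 128 CPM on day 4, median 124. Sesn2 changed by -0.30 in EV (adjusted p 0.0466), -0.33 in P (0.0224) and -0.49 ± 0.11 in PY (0.000551) on the log2 scale, and its groups did not overlap in EV and PY. The EV call was lost in 14 of 24 alternatives and the P call in 6 of 24, but the PY call in 0 of 25.

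**Figure D2:**
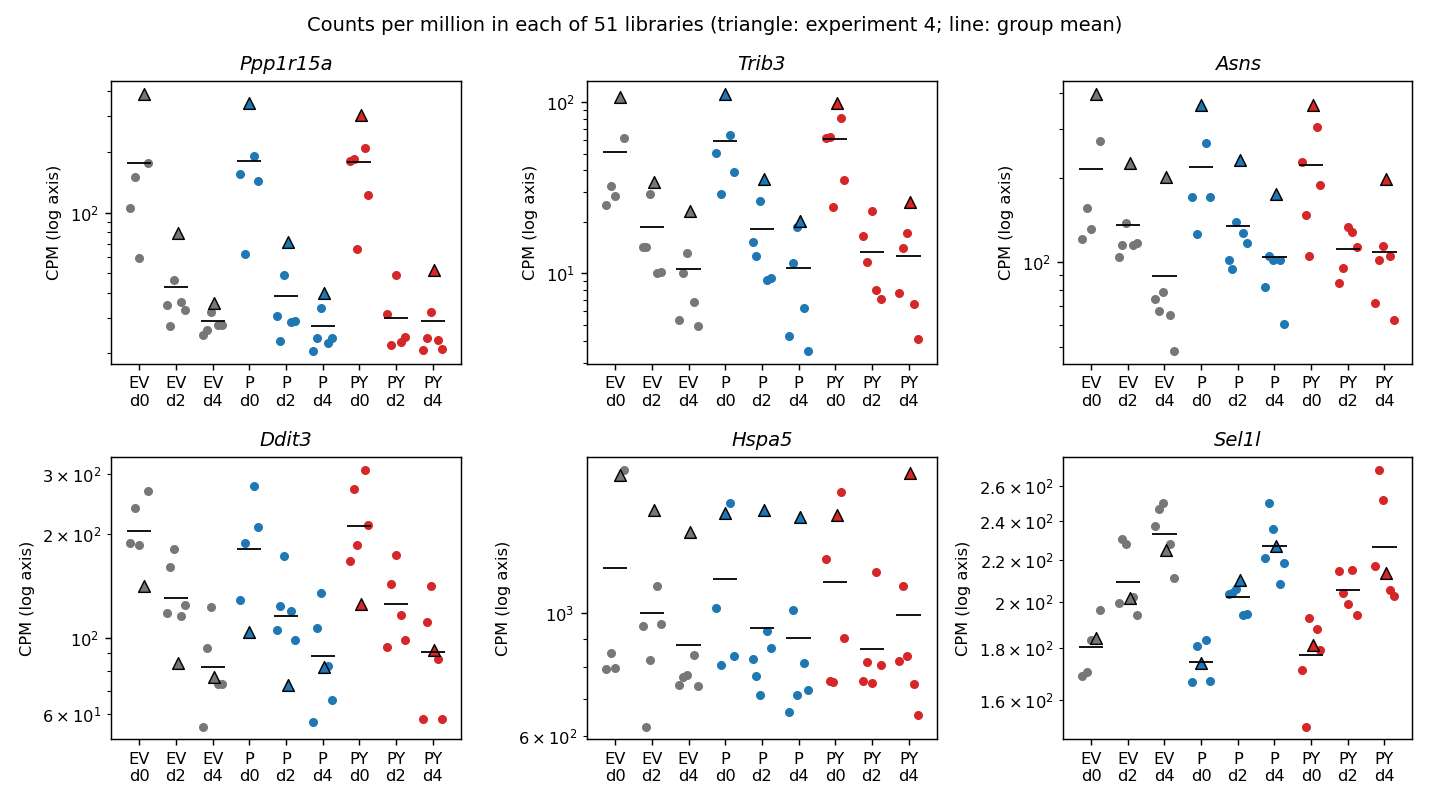
Level in each library (CPM, log axis) of Ppp1r15a, Trib3, Asns, Ddit3, Hspa5 and Sel1l in the 9 groups, with a line at the group mean and triangles for experiment 4. Ppp1r15a separates day 0 from day 4 in every transfection (EV 59.2 to 388 CPM against 24.6 to 35.5 CPM), triangles sit high in most panels and low for Ddit3 on days 0 and 2, and Sel1l rises.

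Both transporter genes of the arm fell in all 3 transfections. Slc3a2 encodes the heavy chain of the heterodimeric amino acid transporters, and Slc7a5 the light chain LAT1 that carries large neutral amino acids. Slc3a2 in EV stood at 325, 379, 309, 671 and 523 CPM on day 0 and at 179 to 231 CPM on day 4, median 188. P day 0 held 404, 314, 676, 537 and 386 CPM against 149 to 213 CPM, and PY 285 to 591 CPM against 158 to 224 CPM. No day 4 library reached the day 0 range in any transfection. Slc3a2 was 2.27-fold lower in EV (adjusted p 2.59e-05), 2.63-fold in P (9.65e-07) and 2.64-fold in PY (3.2e-07). Slc7a5 went from 112, 166, 97.5, 310.0 and 239 CPM in EV to 37.7 to 142 CPM, median 48.8, and its groups overlapped through experiment 4. Slc7a5 was 2.94-fold, 3.84-fold and 3.60-fold lower in EV, P and PY (adjusted p 0.00350, 0.000256 and 0.000287).

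The mitochondrial one-carbon enzymes Shmt2 and Mthfd2 fell in all 3 transfections. Shmt2 in EV went from 143, 172, 143, 409 and 283 CPM to 82.9 to 185 CPM, median 102, with overlapping groups. It was lower by 1.03 ± 0.28 in EV (adjusted p 0.00539), by 1.25 ± 0.29 in P (0.000604) and by 1.10 ± 0.28 in PY (0.00143) on the log2 scale, and the EV call was lost without experiment 5 or without the EV day 0 library of experiment 4. Mthfd2 was 2.40-fold, 2.24-fold and 2.01-fold lower (adjusted p 0.00302, 0.00423 and 0.00948), and its PY call was lost without experiment 1 or 5. Asns, which makes asparagine, was 2.42-fold, 2.10-fold and 2.05-fold lower (adjusted p 0.00418, 0.0116 and 0.0110), but passed in no transfection once experiment 5 was left out.

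In the serine pathway, Psat1 fell by 1.07, 1.16 and 1.05 on the log2 scale in EV, P and PY (adjusted p 0.0194, 0.00904 and 0.0140), and all 3 calls were lost without experiment 5. Phgdh, the first enzyme of that pathway, stood at -0.66, -0.47 and -0.57 and passed in none (0.0764, 0.200 and 0.103). The block brought Phgdh past the threshold in EV (0.00414) and PY (0.00399). Of the proline enzymes, Aldh18a1 fell by 0.51 in PY (adjusted p 0.0492), a call lost in 16 of 25 alternatives, and stood at -0.29 in EV and -0.49 in P, where it passed with the block (0.0256 and 0.000171). Pycr1 stood at 0.05, -0.29 and -0.23 and did not pass with or without the block.

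Part of the fall was present on day 2. At that time 4 of 16 ATF4-arm genes were lower in EV (background 4.43% of genes lower), 5 in P (6.98%) and 12 in PY (11.4%), with 0 higher in each (2.87%, 6.99% and 11.4% of genes higher). Atf4, Sesn2, Ppp1r15a and Slc3a2 passed in all 3. Ppp1r15a changed by -2.04 in EV (adjusted p 0.000474), -2.22 in P (5.02e-05) and -2.61 in PY (7.39e-06) on the log2 scale, and Slc3a2 by -0.97 (0.00188), -1.23 (3.47e-05) and -1.43 (2.8e-06). The EV calls of Atf4 and Sesn2 were lost in 5 and 7 of 24 alternatives. P added Trib3 at -1.71 (0.0150), a call lost in 5 of 24. PY added Trib3, Ddit3, Asns, Chac1, Atf5, Shmt2, Mthfd2 and Slc7a5, from -2.26 for Trib3 to -0.75 for Atf5. Whether the fall by day 2 differed between PY and the other transfections was not tested, and PY day 2 lacks experiment 4, whose libraries were high in EV and P. On day 2 itself 0 ATF4-arm genes were called between PY and either P or EV. The medians of the arm were -0.66, -0.70 and -0.95, against 0.02, 0.01 and 0.01 over all genes. With the block the counts became 11, 13 and 15, as the share of all genes lower became 11.8%, 14.7% and 18.3%. Without experiment 4 they were 4, 8 and 13 (4.88%, 9.29% and 12.7% of all genes lower). Leaving out experiment 5 took PY from 12 to 5, where 5.54% of all genes were lower.

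Between days 2 and 4, 0 of the 37 members passed in any transfection (edgeR), where 0.0353%, 1.28% and 0.0% of all genes were called in EV, P and PY (0.552% higher and 0.723% lower in P). At an unadjusted p under 0.05 there were 5, 4 and 1 members, and DESeq2 also called 0, 0 and 0. The median of the ATF4 arm between these days was -0.59 in EV, -0.38 in P and -0.01 in PY. Experiment as a block gave 9 lower genes in EV (Ddit3, Trib3, Asns, Chac1, Psat1, Phgdh, Shmt2, Mthfd2 and Slc7a5), 4 lower and 1 higher in P (Trib3, Psat1, Shmt2 and Slc7a5 lower, Dnajb9 higher) and 0 in PY, against 20.1%, 20.2% and 5.7% of all genes called. In PY the median was -0.26 with the block or without experiment 4.

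Read experiment by experiment, the median of the ATF4 arm fell from day 0 to day 4 in 5 of 5 experiments with EV, in 5 of 5 with P and in 6 of 6 with PY. The falls ran from -1.77 to -0.59 in EV, from -1.48 to -0.40 in P and from -1.62 to -0.20 in PY on the log2 scale, and the smallest was in experiment 3 each time. Experiment 3 also had the lowest day 0 level in every transfection. By day 2 the median had fallen in 4 of 5, 5 of 5 and 4 of 5 experiments, with experiment 3 the exception in EV and PY. The median of the ER arm fell from day 0 to day 4 in 3 of 5, 1 of 5 and 2 of 6 experiments. By day 2 it had risen in 3 of 5 experiments with EV, 5 of 5 with P and 4 of 5 with PY, by at most 0.30 on the log2 scale.

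**Figure D3:**
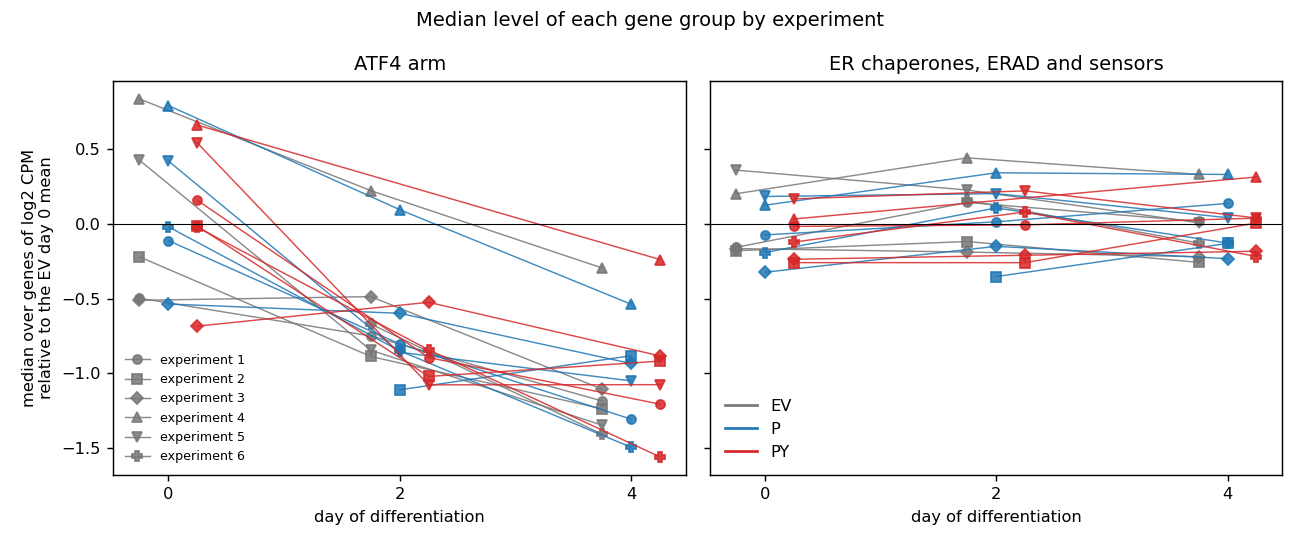
Median over the genes of each arm of the log2 level relative to the EV day 0 mean, by day, with 1 marker shape per experiment and grey, blue and red for EV, P and PY. The ATF4 arm goes from -0.68 to 0.84 on day 0 to between -1.56 and -0.24 on day 4, and the ER arm stays between -0.35 and 0.44.

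ER genes were called in both directions. From day 0 to day 4, 2 of 21 genes were higher and 3 lower in EV, 4 higher and 2 lower in P, and 6 higher and 2 lower in PY, against 15.1%, 18.7% and 19.7% of all genes higher and 14.9%, 18.6% and 17.8% lower. The counts in EV and P, and the lower count in PY, are thus near or below those shares and are not a result about the arm. The 6 higher in PY were above the share but became 4 without experiment 4, so they are not read as such a result either. The medians of 0.02, 0.08 and 0.13 stood beside 0.02, 0.00 and -0.01 over all genes; the difference between the arms was not tested. Calr and Sel1l were higher, and Ern1 and Atf6 lower, in all 3 transfections. DESeq2 gave 3 higher and 3 lower in EV, 5 and 2 in P, and 6 and 3 in PY. It called 17%, 20.8% and 21.1% of all genes higher and 15.8%, 19% and 18.2% lower. The experiment block gave 4 and 4, 5 and 3, and 7 and 3, where 22.3%, 25.3% and 26.1% of all genes were higher and 22.4%, 26.1% and 26.1% lower. Without experiment 4 they were 2 and 2, 4 and 3, and 4 and 3 (2264, 2923 and 3409 of 17022 genes higher, 2703, 3294 and 3585 lower), with medians of -0.14, 0.00 and 0.03. Both arms together held 17, 18 and 22 called genes of 37, where 30.0%, 37.3% and 37.5% of all genes were called. On day 2 the counts were 0 higher and 1 lower in EV, 1 and 1 in P, and 2 and 2 in PY, against 7.29%, 14.0% and 22.8% of all genes called in either direction. Ern1 was lower in all 3. Pdia4 was higher in P and PY, calls lost in 1 and 0 of 24 alternatives. In PY Sel1l was higher and Herpud1 lower, calls lost in 14 and 5 of 24 alternatives. With the block the day 2 counts were 4 and 2, 6 and 3, and 6 and 3. Without experiment 4 they were 0 and 0, 1 and 2, and 2 and 2, where 8.43%, 17% and 24.6% of all genes were called. Over both arms 5, 7 and 16 of 37 passed on day 2, and 17, 22 and 24 with the block, which called 3746, 4866 and 6050 of the 17015 genes.

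Among the sensors, Ern1 fell. Its EV day 0 values were 42.5, 53.8, 32.3, 67.1 and 46.5 CPM, against 27.1 to 40.4 CPM on day 4, median 32.7. P day 0 held 45.1, 35.2, 67.8, 52.4 and 54.7 CPM against 24.1 to 37.8 CPM, and PY 37.3 to 56.1 CPM against 27.6 to 35.8 CPM, the only pair without overlap. Ern1 changed by -0.52 ± 0.15 in EV (adjusted p 0.00571), -0.74 ± 0.15 in P (9.96e-05) and -0.62 ± 0.14 in PY (0.000495), and the EV call was lost without experiment 4. It was lower on day 2 as well, by 0.47, 0.57 and 0.62 on the log2 scale (adjusted p 0.0378, 0.00526 and 0.00194). That EV call was lost in 15 of 24 alternatives, among them each of 5 experiments left out (all but experiment 3), and the P call without experiment 5 or 6. Atf6 fell by 0.83 in EV (adjusted p 0.00686), 0.76 in P (0.00973) and 0.64 in PY (0.0237), from 109, 158, 77.03, 214 and 199 CPM in EV to 75.3 to 117 CPM. Its groups overlapped, and the calls in all 3 were lost without experiment 5. Xbp1, the target of IRE1 splicing, stood at -0.29, 0.03 and -0.01 and did not pass. These counts are per gene and hold no measure of Xbp1 splicing.

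Sel1l, the adaptor of the ERAD ubiquitin ligase, was the steadiest riser. EV day 0 held 169, 171, 183, 184 and 196 CPM, and EV day 4 held 211 to 250 CPM, median 233. P day 0 held 167, 181, 174, 183 and 167 CPM against 208 to 250 CPM, and PY 151 to 193 CPM against 203 to 270 CPM. Day 4 lay above day 0 in every library of every transfection. Sel1l was 1.29-fold, 1.30-fold and 1.28-fold higher (adjusted p 0.000289, 0.000114 and 0.000122), and these day 4 calls held under every alternative. Its partner Syvn1, the ligase HRD1, stood at 0.11, 0.09 and -0.04 on the log2 scale and did not pass. Herpud1, an ERAD factor of the same complex, fell by 0.51 in EV (adjusted p 0.0371), a call lost in 12 of 24 alternatives, and stood at -0.45 in P (0.0571) and -0.43 in PY (0.0558). With the block Herpud1 passed in all 3 (0.000134, 0.00120 and 0.000196). Edem1, a mannosidase-like protein that marks glycoproteins for ERAD, stood at 0.02, 0.39 and 0.30, and passed with the block in P (0.000930) and PY (0.00997).

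Of the folding enzymes, Pdia4, a protein disulfide isomerase, rose in P and PY. Its EV day 0 values were 244, 214, 231, 222 and 311 CPM against 268 to 361 CPM on day 4, and the P values went from 229, 253, 187, 275 and 203 CPM to 312 to 459 CPM, median 364. PY went from 184 to 248.97 CPM to 306 to 402 CPM, median 354. P and PY were separated by day and EV was not. Pdia4 was 1.61-fold higher in P (adjusted p 0.000263) and 1.62-fold in PY (9.27e-05), and stood at 1.26-fold in EV (0.0735), which passed with the block (0.00725). On day 4 itself Pdia4 stood 0.26 ± 0.14 on the log2 scale higher in P than in EV and did not pass (0.447). Calr rose by 0.43, 0.42 and 0.54 on the log2 scale (adjusted p 0.0258, 0.0246 and 0.00247). Its EV and P calls were lost in 8 of 24 and 6 of 24 alternatives, including without the EV or P day 4 library of experiment 4, and its PY call in 0 of 25. In PY Hsp90b1 rose by 0.41 (adjusted p 0.0357) and Canx by 0.33 (0.0264), calls lost in 11 and 10 of 25 alternatives.

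Hspa5, the chaperone whose level is the usual readout of ER stress, did not pass in any transfection. It stood at 791, 847, 796, 1779 and 1824 CPM in EV on day 0 and at 739 to 1404 CPM on day 4, median 770.2. P went from 1023, 805, 1520.5, 1584 and 837 CPM to 663 to 1494 CPM, and PY from 750.1 to 1663 CPM to 653 to 1799.6 CPM. All these groups overlapped, and the change was -0.46 ± 0.28, -0.35 ± 0.28 and -0.19 ± 0.27 on the log2 scale (adjusted p 0.214, 0.331 and 0.606). The ER members not called from day 0 to day 4 included the BiP cochaperones Dnajc3 and Dnajb11, the ER proteins Sdf2l1, Creld2, Manf and Hyou1, and the isomerases Pdia3 and Pdia6. With P, the 15 ER genes not called lay between 0.733-fold and 1.31-fold, with 95% intervals reaching from 0.536 (Hspa5) to 1.62 (Edem1).

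In the main fit the ATF4 arm held no call between P and EV. Between P and EV, 0 of 37 members passed on day 0 (background 0.00588% of genes called), 0 on day 2 (2.84%, 2.78% higher) and 1 on day 4 (5.38%, 5.18% higher), and that 1 was Dnajb9. Those counts are near or below the shares of all genes and are not a result about the members. At an unadjusted p under 0.05 there were 0, 1 and 1 members, and DESeq2 called 0, 0 and 1. On day 4 the 16 ATF4-arm genes lay between 0.839-fold and 1.19-fold of EV. Their 95% intervals reached from 0.495 (Slc7a5) to 2.04 (Chac1), and differences within a gene's own interval were not excluded. The other 20 ER genes lay between 0.870-fold and 1.21-fold. Arm medians were 0.04, -0.13 and -0.04 for the ATF4 genes on days 0, 2 and 4, and -0.04, -0.05 and 0.00 for the ER genes, against 0.00, -0.02 and -0.06 over all genes. Fat cell genes differed on the same days: 14 of 16 were higher in P than in EV on day 2 and 15 of 16 on day 4. A test of whether the change from day 0 differed between P and EV called 0 members by day 2 (0.0588% of genes called, 1 member at an unadjusted p under 0.05) and 0 by day 4 (0.288%, again 1 member, with 1 by DESeq2).

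Dnajb9 (chr12:44205559-44210326, minus strand) encodes ERdj4, a BiP cochaperone that also holds IRE1 in check. Its EV libraries stood at 42.4, 42.9, 48.8, 48.0 and 55.4 CPM on day 0, at 25.6 to 36.7 CPM on day 2 (median 30.0) and at 30.1 to 35.0 CPM on day 4 (median 31.0). With P it held 42.5, 45.0, 48.7, 52.4 and 42.6 CPM on day 0, 37.5 to 83.8 CPM on day 2 and, for experiments 1 to 6, 68.2, 216, 112.5, 48.2, 96.5 and 60.8 CPM on day 4. PY day 2 held 35.1, 80.9, 44.7, 105.7 and 60.0 CPM, and PY day 4 held 85.01, 282, 128, 35.7, 91.0 and 82.0 CPM for experiments 1 to 6. Every P and PY library on day 4 lay above every EV library of that day, experiment 2 was the highest and experiment 4 the lowest, and on day 0 the 3 transfections overlapped.

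On day 4 Dnajb9 was 3.15-fold higher in P than in EV (95% interval 2.09 to 4.75, adjusted p 0.000139), in 6 of 6 experiments, and 1.29 on the log2 scale higher without experiment 2 (0.00121). On day 2 it stood 0.87 ± 0.30 on the log2 scale above EV, in 6 of 6 experiments, and did not pass (0.127); with the block it did (0.78, adjusted p 0.0483). From day 0 to day 4 it rose by 1.12 in P (adjusted p 0.00451) and 1.33 in PY (0.000479), while EV stood at -0.57 (0.158), lower in 5 of 5 experiments. Experiment 4 alone showed no rise: Dnajb9 went from 48.7 to 48.2 CPM in P and from 41.7 to 35.7 CPM in PY. The fold change of Dnajb9 from day 0 to day 4 in P was 3.23 times that in EV. This difference missed the threshold (adjusted p 0.0751) and passed with the block (1.42 on the log2 scale, 0.0370). Without experiment 2 the rise was 0.74 in P (0.0199) and 0.85 in PY (0.00869). The fat cell genes moved with it: their summed level in P on day 4 was 8060, 23604, 14053, 5467, 19504 and 8761 CPM for experiments 1 to 6, so the libraries of experiments 2 and 4 were highest and lowest in both. In PY on day 4 it was 12428, 26147, 18999, 2829, 21613 and 16420 CPM. The part of fat cell formation in the Dnajb9 difference was not tested.

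**Figure D4:**
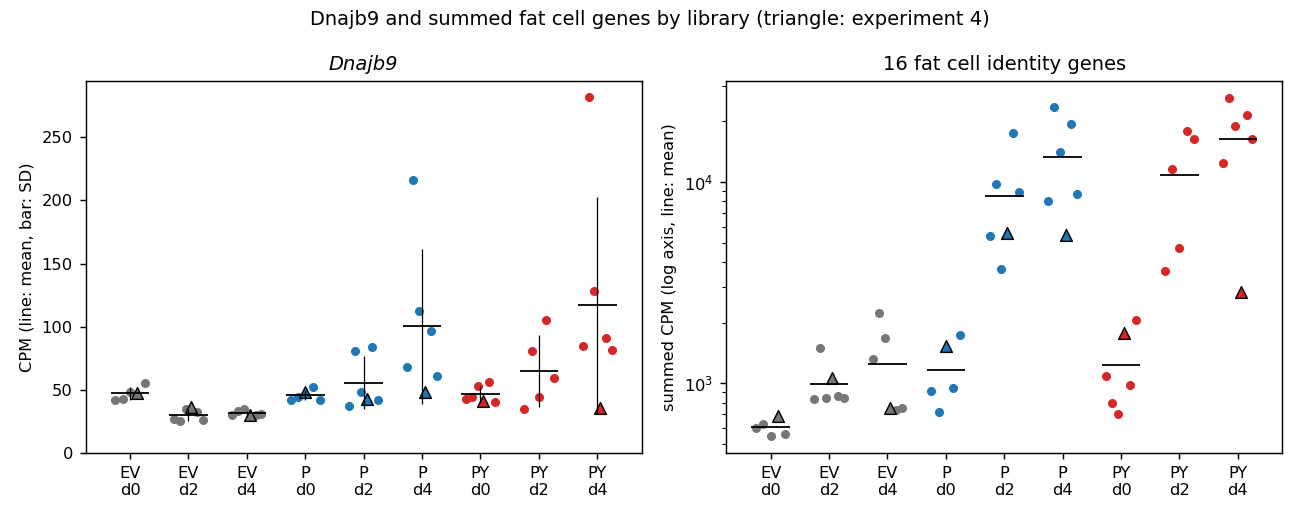
Left, Dnajb9 in each library (CPM, linear axis) with group mean and SD; right, summed level of 16 fat cell genes in the same libraries (CPM, log axis). Dnajb9 stays at 25.6 to 55.4 CPM in EV and reaches 216 CPM in P and 282 CPM in PY on day 4, in the experiment with the highest fat cell level.

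Adding the Ybx1 guide to the Pparg guide gave no member a call. Between PY and P, 0 of 37 passed on each of the 3 days (edgeR; background 0.0294%, 0.0118% and 0.0176% of genes called), with 0 at an unadjusted p under 0.05 on each day and 0 by DESeq2. With so few genes called in the table as a whole, those counts say little about these members in particular. On day 4 the ATF4-arm genes lay between 0.909-fold and 1.17-fold of P and the ER genes between 0.937-fold and 1.16-fold, with intervals from 0.593 (Slc7a5) to 2.24 (Trib3). For Dnajb9 the difference was 1.16-fold with an interval from 0.781 to 1.73. The median of the ATF4 arm was 0.01, -0.27 and 0.04 on days 0, 2 and 4, and the day 2 value was -0.08 with the block or without experiment 4. The change from day 0 to day 4 differed between PY and P in 0 members (0.0% of all genes called, 0 at an unadjusted p under 0.05, 0 by DESeq2).

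PY against EV shares its EV libraries with P against EV and so repeats part of it. It called 0, 1 and 1 members on days 0, 2 and 4, where 0.047%, 4.74% and 7.83% of genes were called (4.34% higher on day 2, and 7.03% higher and 0.793% lower on day 4), and that member was Dnajb9, 2.15-fold higher on day 2 (adjusted p 0.0253) and 3.66-fold on day 4 (1.51e-05). The day 2 call was lost without experiment 5 or 6, without the EV day 2 library of experiment 1, 2 or 6, or without the PY day 2 library of experiment 2 or 5. With the block Aldh18a1 was also lower in PY than in EV, by 0.34 on the log2 scale on day 2 (adjusted p 0.0112) and by 0.31 on day 4 (0.0102).

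Other genes of each pathway were listed beside the members. Of 46 further ATF4-pathway genes tested, 27, 28 and 26 were lower and 3, 4 and 5 higher on day 4 than on day 0 in EV, P and PY, with medians of -0.70, -0.62 and -0.54. The shares of all genes were 14.9%, 18.6% and 17.8% lower and 15.1%, 18.7% and 19.7% higher. Slc7a11, the cystine importer, was 6.42-fold, 6.04-fold and 4.97-fold lower. Atf3, a stress-induced repressor, was 14.1-fold, 11.2-fold and 7.86-fold lower. Slc1a5, a glutamine transporter, rose with the guide and was 4.18-fold higher in P than in EV on day 2 (adjusted p 0.000225) and 4.97-fold on day 4 (2.33e-05). Gpt2, an alanine aminotransferase, and Cebpg, an ATF4 partner, were 2.24-fold and 1.53-fold higher on day 4 (0.00547 and 0.0132). Like Dnajb9, Slc1a5 in P on day 4 was lowest in experiment 4 (27.5 CPM) and highest in experiment 2 (125 CPM).

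Of 46 further ER folding and ERAD genes, 12, 11 and 14 were higher and 2, 4 and 3 lower on day 4 than on day 0. Over all genes 15.1%, 18.7% and 19.7% were higher and 14.9%, 18.6% and 17.8% lower. Mbtps1, the protease that cleaves ATF6, was 1.57-fold, 1.39-fold and 1.44-fold higher, and Ganab, a glucosidase subunit of glycoprotein folding, 1.43-fold, 1.34-fold and 1.39-fold. Derl1, a channel protein of ERAD, was the single gene of this list called between P and EV, at 1.44-fold on day 4 (adjusted p 0.0189). Between PY and P, 0 genes of either list passed.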

How the data were processed

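Raw read counts per gene, deposited by the authors for all 51 libraries (from a stranded Illumina TruSeq kit with Ribo-Zero Gold depletion, per the labels' protocols), were used as given. The submitters' processing notes name featureCounts 1.5.2 and STAR 2.5.3a, the builds mm10 and GRCm38, and edgeR 3.22.0; the annotation release, strand setting and treatment of multi-mapping reads are not given in the sources used here. Gene positions and symbols came from GENCODE M21, which held 53706 of 53801 identifiers, and promoters from RefSeq.

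In R 4.3.3, 17015 genes passed edgeR 4.0.16's filterByExpr. One quasi-likelihood fit (glmQLFit, glmQLFTest; limma 3.58.1) held 9 group means over all libraries, with TMM normalization and no block. P-values were two-sided and adjusted by Benjamini and Hochberg over all 17015 genes, and a call is an adjusted p under 0.05. The SE of a log2 fold change is its size divided by the square root of F. Levels are CPM on TMM-scaled library sizes. The procedure was tested on simulated data. DESeq2 1.42.0 was an alternative.

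The labels give an experiment number that is shared across groups, so the numbers pair the libraries. Libraries of the same experiment deviated together from their group means, with a median correlation of 0.364 over 192 pairs, against -0.0886 over 963 pairs of different experiments. The biological coefficient of variation fell from 0.325 to 0.202 with experiment as a block. No 2 libraries held identical counts. Nothing beyond the experiment number says that replicates were separate cultures, so p-values measure the spread between these libraries.

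The members, the further pathway lists and the marker lists were chosen with earlier results of these data known. All 37 members are accounted for; the 12 of lowest adjusted p have the most space, and members never called are given by range. The alternatives were DESeq2's size factors, DESeq2 itself, no filter, at least 1 CPM in at least 10 libraries, experiment as a replicate block, only the groups compared, leaving out the 2 libraries of lowest total, and leaving out each library and each experiment.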

Additional observations from a re-analysis of the deposited data

Results flagged for a closer look

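Within groups of 5 or 6 libraries, the highest or lowest library stood far from the rest in 37 of 207 gene and group pairs. The cutoff flags about 1 in 20 for independent, normally distributed values. Genes here share libraries, so that rate is not an expectation for these pairs. Of the 37, 35 were high experiment 4 libraries. Levels below are in CPM. Whether RNA quality, cell state or handling moved with experiment 4 was not tested.

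In EV on day 2, the experiment 4 library was high for Atf4 (368), Asns (227), Chac1 (63.3), Ppp1r15a (79.2), Psat1 (387), Shmt2 (279.6), Mthfd2 (79.6), Aldh18a1 (171) and Slc7a5 (218). In EV on day 4 it was high for Asns (202), Chac1 (34.4), Shmt2 (185), Mthfd2 (62.4), Aldh18a1 (179.7), Slc7a5 (142), Herpud1 (107), Calr (2142) and Atf6 (117).

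For P on day 2, the library of that experiment was high for Asns (231), Chac1 (58.0), Mthfd2 (79.9), Aldh18a1 (151), Calr (1802) and Atf6 (151), and on day 4 for Shmt2 (162), Herpud1 (113) and Calr (2032). For PY on day 4 it was high for Chac1 (48.6), Ppp1r15a (51.9), Psat1 (315), Shmt2 (207), Aldh18a1 (161), Slc7a5 (136), Slc3a2 (224) and Herpud1 (113).

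The other 2 libraries were of other experiments. Chac1 was high in the PY day 2 library of experiment 3 (38.1), and Calr was low in the P day 0 library of experiment 6 (843), where the other libraries held 1209 to 1319.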

How the results depend on the processing

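Under DESeq2, the stricter filter and the fit without the 2 libraries of lowest total, all 90 results on single genes kept their direction and their side of the threshold. Over DESeq2's size factors, no filter, the block and the fits on only the groups compared, 327 comparisons of such a result with its alternative were unchanged in call and direction, 29 lost their call, 2 gained one and 2 reversed. The counts of members called that moved by over 1.5 times were these. With experiment as a replicate block, the counts became 1 of 37 (from 0) for P against EV on day 2, 2 (from 1) for PY against EV on day 2 and 2 (from 1) on day 4, 17 (from 5) for EV day 2 against day 0, 22 (from 7) for P day 2 against day 0, 9 (from 0) for EV day 4 against day 2, 5 (from 0) for P day 4 against day 2, and 1 (from 0) for the change of the P to EV difference by day 4. Fits on only the groups compared gave 1 for P against EV on day 2 and 1 for that change, DESeq2 gave 1 for that change, and no filter gave 3 for EV day 2 against day 0. The block changed no other count by over 1.5 times.

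Leaving out 1 library or 1 experiment, members called ranged from 2 to 7 for EV day 2 against day 0 (main 5), 12 to 18 for EV day 4 against day 0 (17), 0 to 2 for EV day 4 against day 2 (0), 4 to 12 for P day 2 against day 0 (7), 15 to 20 for P day 4 against day 0 (18), 0 to 1 for P day 4 against day 2 (0), 7 to 19 for PY day 2 against day 0 (16), 15 to 23 for PY day 4 against day 0 (22), 0 to 1 for PY against EV on day 2 (1) and 0 to 1 for the change of the P to EV difference by day 4 (0). EV day 2 against day 0 gave 2 without experiment 1 or 2 or the EV day 0 library of experiment 4, and 3 without experiment 5 or 6 or the EV day 0 or day 2 library of experiment 2. P day 2 against day 0 gave 11 without experiment 3 or 4 or the P day 0 library of experiment 3, 12 without the P day 2 library of experiment 4, and 4 without experiment 5. PY day 2 against day 0 gave 10 without experiment 1 or 2 or the PY day 2 library of experiment 2, and 7 without experiment 5. EV day 4 against day 2 gave 2 without experiment 4, P day 4 against day 2 gave 1 without the P day 4 library of experiment 4, and the change by day 4 gave 1 without experiment 4 or the P day 4 library of experiment 1, 4 or 6. The other counts did not move. The cause was not tested. Called in every alternative were 9 of 17 members in EV, 13 of 18 in P and 14 of 22 in PY for day 4 against day 0. Dnajb9 in P against EV on day 0, near 0 at -0.04 on the log2 scale, reversed to 0.00668 with no filter, 0.0961 with the block and 0.0257 without the EV day 0 library of experiment 5, and ranged from -0.0863 to 0.0257 with 1 library or experiment left out.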
